A study of Morus alba with 35 samples.

Results

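The change that white mulberry (Morus alba) cells went through between 12 and 24 h in control medium was measured by RNA sequencing, as the difference between the 2 control libraries of 24 h and the 2 of 12 h. These 4 libraries were taken by their labels from 34 with read counts, of which 12 were controls and 22 came from elicited flasks. All groups were suspensions of cells from stem tissue. For each flask, 8 g of filtered and washed cells from a suspension 14 days old went into 32 g of fresh medium and were kept at 25 °C in the dark, so every group shares the transfer. Flasks of both treatments received the ethanol carrier at 2.1 µL per mL of suspension, and controls received no elicitor. Elicited flasks, used below for the same hours, held MBCD, a methylated cyclodextrin, at 50 mM together with methyl jasmonate at 100 µM, with 4 libraries at 12 h and 4 at 24 h. Each replicate was a flask of its own, and the labels do not say whether the flasks were filled from different parent cultures. The p-values therefore measure the spread between flasks, pooled over all groups fitted, and that spread may be technical.

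Plant cells moved to fresh medium commonly pass through a lag before they divide and grow, and later use up the sugar and nutrients they were given. Methyl jasmonate is a defence hormone, and cyclodextrins are used with it to make cultured cells produce stilbenes, the group of phenolic compounds to which oxyresveratrol of mulberry belongs. Control flasks show what cells do over the same hours without these elicitors. In a bulk culture, fewer cells of a kind and less RNA per cell cannot be told apart. Identifiers in the count table come without names or products, so genes are described by position, structure and course, and 4 are given by identifier.

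The 4 libraries held 17191217 to 18540515 counts over 31401 annotated genes, and 20107 genes passed the filter on low counts over all libraries and were tested. Replicates of the step were close, with a Pearson r of log2 CPM (counts scaled to a common library size by TMM) across genes of 0.992 at 12 h and 0.993 at 24 h. Their counts nevertheless differed by more than sampling noise, with a chi-square per degree of freedom of 5.91 and 2.79, and each library was counted as 1 replicate. Among the elicited libraries used below, replicate 4 of 12 h stood apart, with a chi-square per degree of freedom of 70.3 to 94.7 against the other 12 h elicited libraries, where those gave 7.83 to 17.4 among themselves.

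In control cells 1425 genes rose over these 12 hours and 1986 fell (edgeR quasi-likelihood test, Benjamini-Hochberg adjusted p below 0.05), which is 7.09% and 9.88% of the genes tested and 17% together. The falls were the larger changes. At least 2-fold changes numbered 502 rises (2.5% of genes tested) and 861 falls (4.28%), at least 4-fold changes 98 and 262, and at least 8-fold changes 10 and 86. Rises had a median log2 fold change of 0.77 (quartiles 0.53 to 1.27) and falls one of -0.89 (-1.51 to -0.58), with median standard errors of 0.20 and 0.21. Over all genes tested the median was -0.04. In every called gene both libraries of 1 time lay outside the range of the other time. That was also so for 31.3% of all genes tested in the upward direction and 38.6% in the downward direction, so nothing is read from it with 2 libraries on each side.

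These numbers depended on the fit more than the directions did. Leaving out control 12 h replicate 1, 12 h replicate 2, 24 h replicate 1 or 24 h replicate 2 gave 626, 568, 677 and 647 rises, and 1115, 1086, 933 and 930 falls, where the lone library left in a group is assumed to vary like the other groups. With only the 4 libraries in the fit there were 4152 rises and 4216 falls, 1419 and 1962 of them among the 1425 and 1986. With only the 12 control libraries there were 1931 rises and 1760 falls, a share of rises of 52.3% in place of 41.8%. None of the called genes was called in the opposite direction under any of the 12 alternatives, but which direction held more genes depended on the libraries fitted and on the scaling. Library size alone gave 1648 rises and 1548 falls.

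**Figure D1:**
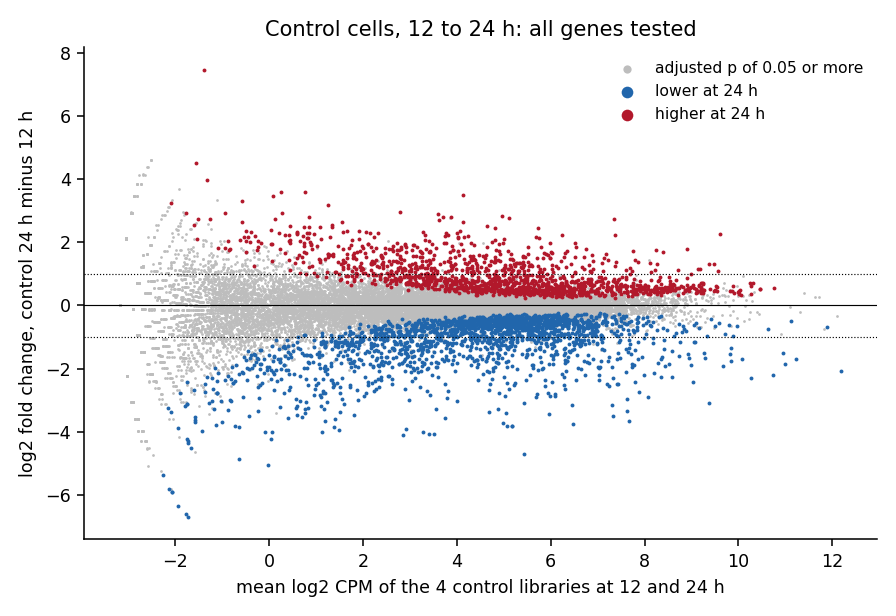
Log2 fold change of control cells from 12 to 24 h (y axis) against the mean log2 CPM of the 4 control libraries (x axis), 1 point per gene for 20107 genes. Dotted lines mark 2-fold; the 1425 genes called higher are red, the 1986 called lower are blue, and the blue points reach farther from 0 at most levels.

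The step redistributed the reads of the culture. Genes that rose held 11.6% and 11.7% of all counts in the 12 h control libraries and 19.6% and 19.7% in those of 24 h. Genes that fell held 21.1% and 21.4% at 12 h and 10.2% and 10.3% at 24 h. Since these genes were chosen on the same libraries, the shares describe the size of the step and test nothing. The fall was more concentrated than the rise. The 10 genes with the most lost reads made up 26.4% of the reads lost, and 54 genes made up at least 50% of them. On the rising side the first 10 genes made up 10.6%, and 123 genes were needed for 50%.

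Libraries of the other control times are not part of the contrast that chose these genes, though they entered the filter, the scaling and the estimate of the spread. The genes that rose held 7.65% to 9.60% of counts in the 4 control libraries of 0.5 and 6 h and 23.9% to 24.4% in the 4 of 48 and 72 h, with no overlap. The genes that fell held 16.0% to 21.7% in the former and 7.41% to 8.11% in the latter. Tested gene by gene with the 48 and 72 h controls against the 0.5 and 6 h controls, 1255 of the 1425 risen genes were also higher late, or 88.1% (Wilson 95% interval 86.3 to 89.7%). Over all genes tested, 35% were higher late. Of the 1986 fallen genes, 1655 were lower late, or 83.3% (81.6 to 84.9%), where 37.5% of all genes were. In the other direction, the 1255 were 17.8% of the 7037 genes higher late, and the 1655 were 22.0% of the 7531 genes lower late. Without each of the step's 4 libraries in the order above, the 1255 became 581, 524, 624 and 609 and the 1655 became 991, 951, 820 and 821, along with the shorter lists of the step.

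Relative to the mean of the 0.5 h controls, the median level of the risen genes stood at -0.18 ± 0.018 log2 units at 6 h (SD, n = 2, as for each control time), 0.32 ± 0.0023 at 12 h and 1.10 ± 0.010 at 24 h. It then stood at 1.37 ± 0.088 at 48 h and 1.34 ± 0.013 at 72 h. The fallen genes stood at 0.21 ± 0.052 at 6 h, 0.05 ± 0.0014 at 12 h and -0.83 ± 0.0066 at 24 h, followed by -1.18 ± 0.065 at 48 h and -1.05 ± 0.039 at 72 h. Most of the distance between the early and the late level of both groups was covered between 12 and 24 h, in genes chosen for that step. Most of these genes had their extreme after 24 h. Of the risen genes, 176 (12.4%) had their highest mean of the 6 control times at 24 h, against 479 at 48 h and 623 at 72 h, and of the fallen genes 308 (15.5%) had their lowest there, against 848 and 643. Over all genes tested, 7.82% had their highest and 9.53% their lowest mean at 24 h.

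**Figure D2:**
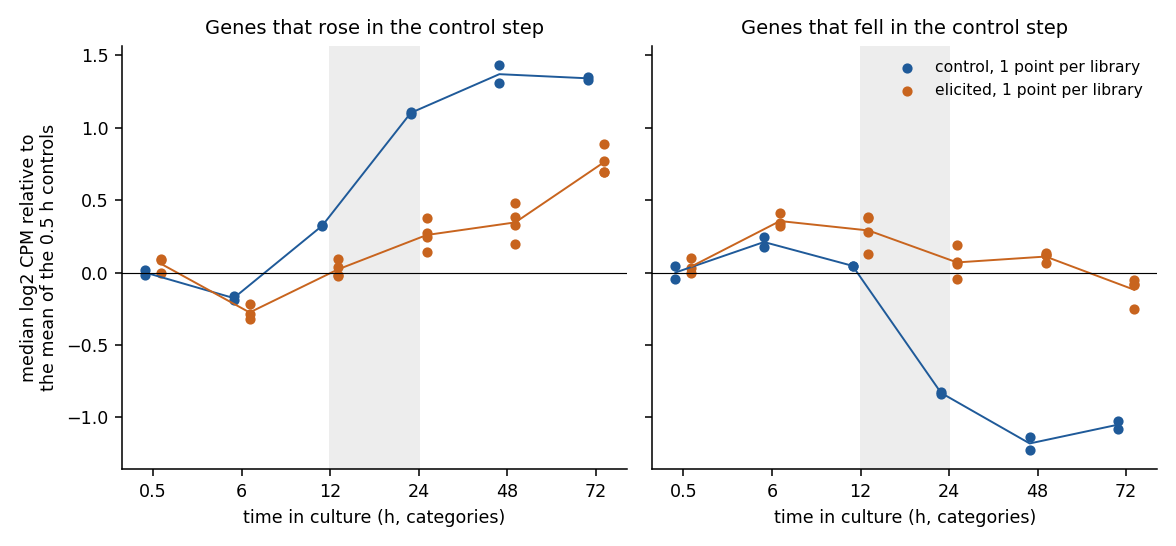
Median log2 CPM relative to the mean of the 0.5 h controls (y axis) at each time in culture (x axis, 6 times as categories) for the 1425 genes that rose and the 1986 that fell in the control step, which is shaded. Points are libraries and lines join group means; control libraries already lie outside the range of the elicited ones at 12 h in both panels, and at 24 h they lie farther away, with the elicited libraries between -0.04 and 0.38.

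Over the first 6 h, more of the same genes had moved the other way than the same way, and many were not called. From 0.5 to 6 h, a comparison that shares no library with the step, 467 of the risen genes had fallen (32.8%, against 19.5% of all genes tested) and 226 had risen (15.9%, against 16.8%). Of the fallen genes, 688 had risen by 6 h (34.6%, against 16.8%) and 320 had fallen (16.1%, against 19.5%). Not called by 6 h were 732 of the risen genes (51.4%) and 978 of the fallen genes (49.2%), against 63.7% of all genes tested. Between 6 and 12 h the medians of both lists already moved in the direction of the step. That of the risen genes went from -0.18 to 0.32 log2 units, and that of the fallen genes from 0.21 to 0.05. The 12 h libraries helped to choose these genes, and the change from 6 to 12 h was not tested. From 48 to 72 h few genes were called: 799 of all tested rose (3.97%) and 408 fell (2.03%). The median size of the log2 fold change over all genes was 0.26 there, against 0.30 from 12 to 24 h. The 48 h replicates differed by a chi-square per degree of freedom of 36.3, so few calls do not show that few genes moved. Between 48 and 72 h, 208 of the fallen genes rose again (10.5%) and 59 fell (2.97%). Of the risen genes 70 rose further (4.91%) and 52 fell (3.65%). These last counts rest on single libraries, since the 799 became 193 without control 72 h replicate 2 and 341 without 72 h replicate 1. The 408 became 809 without control 48 h replicate 1, 163 without 48 h replicate 2, 85 without 72 h replicate 1 and 69 without 72 h replicate 2.

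Smaller classes followed another course. The step raised 60 genes that were lower late than early. Relative to the 0.5 h controls, their median was -1.42 ± 0.023 at 12 h, -0.72 ± 0.010 at 24 h and -1.19 ± 0.073 at 72 h (SD, n = 2 each), with the 12 h value the lowest of the 6 times. A further 110 risen genes did not pass the test between early and late controls, and their median went from -0.96 ± 0.028 at 12 h to -0.15 ± 0.033 at 24 h. Among the fallen genes, 84 were higher late than early, with medians of 1.11 ± 0.049 at 12 h, 0.34 ± 0.091 at 24 h and 0.96 ± 0.027 at 72 h. Another 247 did not pass between early and late. Their median stood at 0.75 ± 0.011 at 12 h, 0.01 ± 0.032 at 24 h and 0.15 ± 0.060 at 72 h. Of the 6 times, 12 h had the highest value. The 12 h and 24 h values of these classes belong to the step by which the genes were chosen.

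In elicited cells fewer genes were called over the same hours, and fewer of them at 2-fold or more. By the same test 1004 genes rose there (4.99%) and 1086 fell (5.4%), of which 82 (0.408% of genes tested) and 295 (1.47%) changed at least 2-fold, with 4 libraries at each time where the controls had 2. Without elicited 24 h replicate 1 these counts were 606 and 705, and without the 12 h library that stood apart they were 795 and 974. The control step and the elicited step share no library. Of the 1425 genes risen in controls, 370 rose in elicited cells (26.0%, Wilson 95% interval 23.8 to 28.3%, and 36.9% of the 1004) and 27 fell. Of the 1986 genes fallen in controls, 457 fell in elicited cells (23.0%, 21.2 to 24.9%, and 42.1% of the 1086) and 11 rose. Without each of the 4 control libraries in the same order the 370 became 178, 146, 168 and 174, and the 457 became 299, 273, 245 and 259. The 457 also became 296 without elicited 24 h replicate 4.

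Sizes differed whichever treatment chose the genes. Genes risen in controls had a median log2 fold change of 0.77 there and 0.22 in elicited cells, and genes fallen in controls had -0.89 and -0.23. Genes risen in elicited cells had 0.44 there and 0.33 in controls, and genes fallen in elicited cells had -0.70 and -0.49. Choosing genes in 1 treatment raises their values in that treatment, so neither pair alone compares the treatments. Over all genes the fold changes of the 2 steps correlated with a Pearson r of 0.245 and a Spearman rho of 0.338, across 20107 genes that are not independent and with all libraries scaled together.

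A direct test of the difference between the steps called 1013 genes (5.04%; edgeR quasi-likelihood test of the contrast of both steps, Benjamini-Hochberg). In 424 genes (2.11%) the control step lay above the elicited step, with a median log2 fold change of 1.14 in controls and -0.26 in elicited cells. In 589 genes (2.93%) it lay below, with -1.32 in controls and -0.02 in elicited cells. These medians describe genes chosen by that same contrast. The 424 became 169, 177, 205 and 197, and the 589 became 238, 274, 204 and 215, without the control libraries in the order above. Without elicited 12 h replicate 4 they were 356 and 529.

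**Figure D3:**
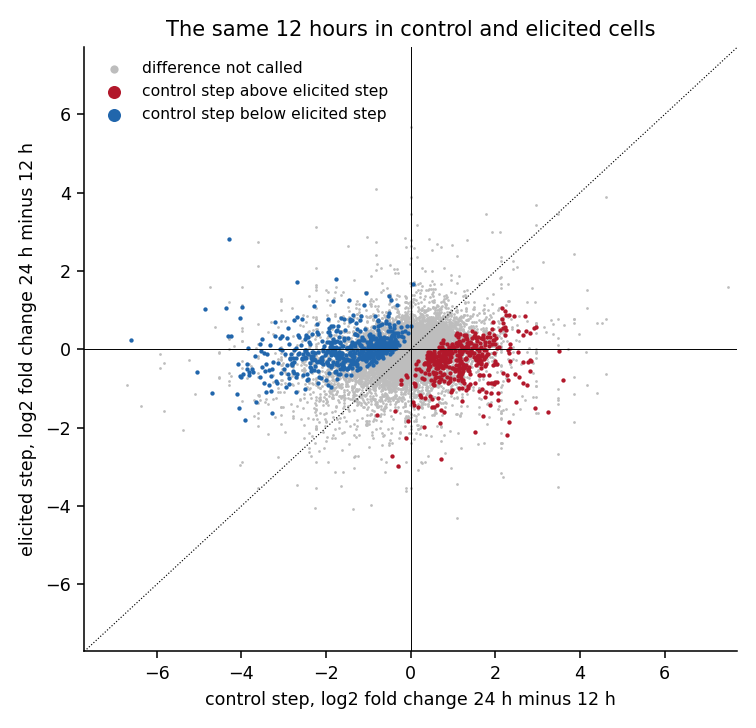
Log2 fold change from 12 to 24 h in elicited cells (y axis) against that in control cells (x axis), 1 point per gene for 20107 genes. The dotted line marks equal changes; the 424 genes with the control step above the elicited step (red) and the 589 below (blue) spread along the x axis and lie closer to 0 on the y axis.

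Of the called genes that averaged 4 or more on the log2 CPM scale in the 4 libraries and share no exon base with another gene, the greatest rise was that of Mal_HE_154X_1_chr008g011980. It has 12 exons of 2157 bases in all on chromosome 8 (11374033 to 11377596, plus strand), in the coordinates of the deposited table. It stood at 5.09 and 5.12 CPM in the 12 h controls and at 59.6 and 56.2 CPM in the 24 h controls. Earlier it had gone from 2.57 and 2.52 CPM at 0.5 h to 11.3 and 12.5 CPM at 6 h, so that both 12 h values lay below both of 6 h. Later it reached 212 and 215 CPM at 48 h and 197 and 220.3 CPM at 72 h. The log2 fold change of the step was 3.50 (SE 0.55, adjusted p = 6.98e-05, edgeR quasi-likelihood). In elicited cells it lay between 1.76 and 4.71 CPM in the 4 libraries of 12 h and between 2.77 and 3.92 CPM in those of 24 h, ranges that overlap (log2 fold change -0.04, adjusted p = 0.974). The difference between the steps was 3.54 (SE 0.71, adjusted p = 0.00315).

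The second was Mal_HE_154X_1_chr008g000890, with 3 exons of 1131 bases on chromosome 8 (694896 to 697800, plus strand). It was an abundant transcript, at 374 ± 26.9 CPM per kilobase of exon in the 24 h controls against 26.8 ± 1.11 for the gene above (SD, n = 2 each). In CPM it went from 72.1 and 55.4 at 12 h to 445 and 402 at 24 h, and on to 659 and 1014 at 48 h and 1548 and 1504 at 72 h. It too was lower at 12 h than at 6 h, where it had 111 and 84.0 CPM. The log2 fold change of the step was 2.73 (SE 0.48, adjusted p = 0.000206, same test). In elicited cells the 12 h libraries held 20.1, 10.4, 14.9 and 57.6 CPM, the last being the library that stood apart, and the 24 h libraries 31.2 to 40.4 CPM. The elicited step did not pass (0.48, SE 0.33, adjusted p = 0.389), and the difference between the steps was 2.25 (SE 0.56, adjusted p = 0.0163).

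The greatest fall by the same rule was that of Mal_HE_154X_1_chr008g004670, with 2 exons of 1584 bases on chromosome 8 (3908161 to 3909998, minus strand). In controls it stood at 16.2 and 26.8 CPM at 0.5 h, 51.8 and 111 CPM at 6 h, and 240.2 and 198 CPM at 12 h. At 24 h it was down to 8.53 and 8.28 CPM, and at 48 and 72 h between 0.802 and 1.99 CPM. The log2 fold change of the step was -4.70 (SE 0.55, adjusted p = 2.96e-06, edgeR quasi-likelihood), a 26.0-fold drop. In elicited cells it also fell, from 551, 679, 582 and 173 CPM to 287, 301, 175 and 159 CPM (-1.11, SE 0.33, adjusted p = 0.0289), and the control step was the steeper by -3.60 (SE 0.60, adjusted p = 0.000833). It lies in a run of genes of like structure, described below, whose reads the counting could have split.

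The second fall was that of Mal_HE_154X_1_chr009g003920, whose only exon spans 612 bases at 4208888 to 4209499 on the plus strand of chromosome 9. Its control libraries held 30.1 and 63.8 CPM at 0.5 h, 102 and 216 CPM at 6 h, and 140.3 and 132 CPM at 12 h. They then held 9.08 and 9.94 CPM at 24 h, 1.38 and 2.92 CPM at 48 h, and 0.377 and 0.865 CPM at 72 h. The log2 fold change of the step was -3.84 (SE 0.52, adjusted p = 1.14e-05, same test). In elicited cells the gene was high at both times, at 269 to 981 CPM in the 12 h libraries and 403 to 1011 CPM in those of 24 h (0.03, SE 0.32, adjusted p = 0.970). The difference between the steps was -3.87 (SE 0.59, adjusted p = 0.000467). Without any 1 of the step's libraries the log2 fold changes of the 4 genes lay at 3.46 to 3.54, 2.55 to 2.93, -4.83 to -4.55 and -3.90 to -3.77, in the order described, and all passed.

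**Figure D4:**
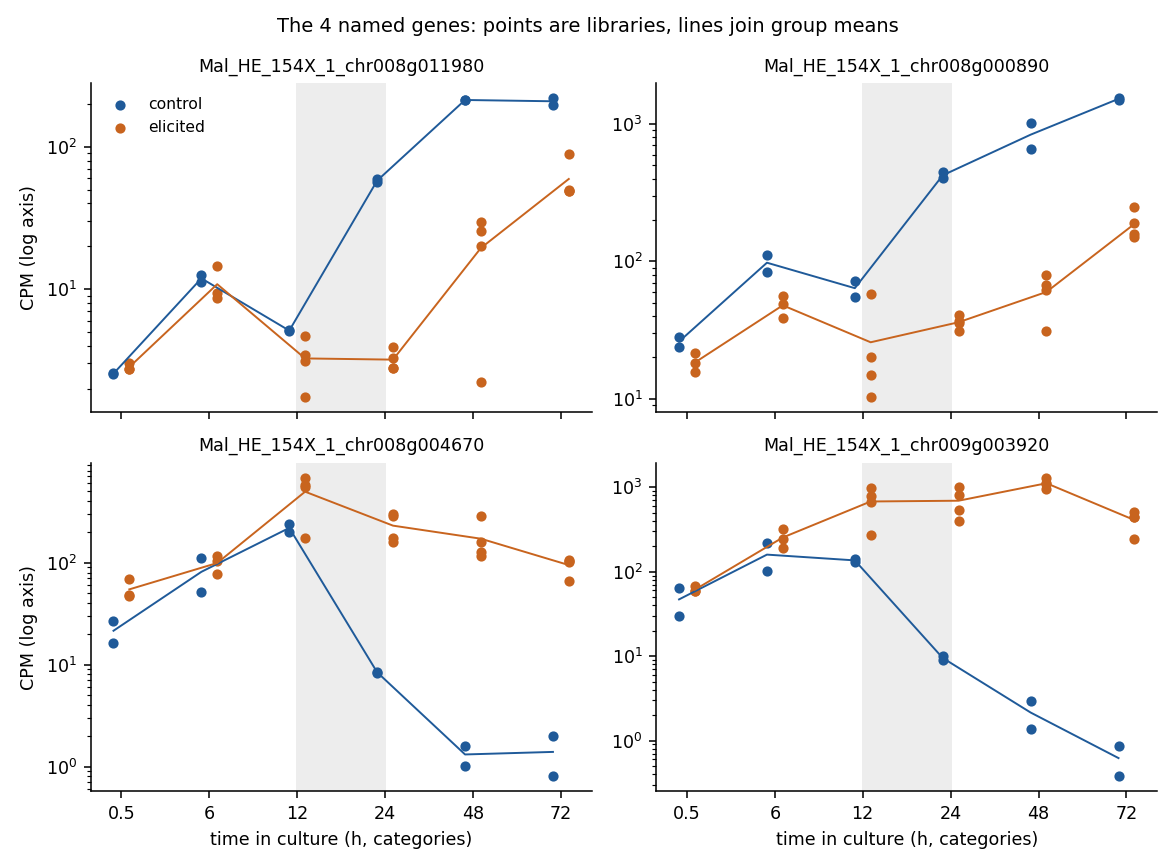
CPM on a log axis (y axis) at each time in culture (x axis, categories) of the 2 genes with the greatest rise and the 2 with the greatest fall in the control step, which is shaded. Points are libraries and lines join group means; at 24 h both control points lie outside the range of the elicited points in all 4 genes, as they already did at 12 h in some of them.

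Some of the called genes lay beside another gene called in the same direction. Along the chromosomes, 628 of the 1986 fallen genes (31.6%) were next to another fallen gene among those tested, and 329 of the 1425 risen genes (23.1%) next to another risen one, where the longer list alone makes neighbours more frequent. Runs of 5 or more consecutive tested genes were 10 on the falling side and 0 on the rising side, where the longest runs had 4 genes. No chance test was made of these counts, and the share of all tested genes beside a fallen or a risen gene was not counted. Genes that share exon bases, 142 of the fallen and 100 of the risen, were kept, and shared reads may make neighbours alike. Nothing is therefore read from the 31.6% and 23.1%. The 10 became 6, 6, 4 and 6 without the control libraries in the order above, 24 with only the 4 libraries in the fit, and 5 when an untested gene ends a run.

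The longest run held 11 genes over 101125 bases of chromosome 8 (3860972 to 3962096), all on the minus strand and 10 of them with 2 exons. Its summed level in controls was 722 and 969 CPM at 0.5 h, 1986 and 2511 CPM at 6 h, and 5783 and 5553 CPM at 12 h. At 24 h it was 1273 and 1361 CPM, at 48 h 697 and 334 CPM, and at 72 h 387 and 478 CPM. The 12 h controls were thus the highest of the course, and the 24 h controls lay below those of 6 h. The log2 fold changes of its genes in the step were -6.60 to -1.85. All 11 were lower at 48 and 72 h than at 0.5 and 6 h, as were 83.3% of all the fallen genes and 37.5% of all genes tested. In elicited cells the sum was 3847 to 11771 CPM at 12 h, lowest in the library that stood apart, and 6584 to 9258 CPM at 24 h. Of the 11, 2 fell there, where 23.0% of all the fallen genes and 5.4% of all genes tested did. The test of the difference between the steps was passed by 10 of the 11 and by 5.04% of all genes. Runs were chosen by falls in the control step, which enters that difference. In every run the choice therefore favours passing, and the share over all genes is not a like background.

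The next run lay on the same chromosome and strand, with 10 genes over 84823 bases (3602615 to 3687437), 9 of them with 2 exons. Its control sums were 1779 and 2622 CPM at 0.5 h, 3736 and 5549 CPM at 6 h, 12612 and 11941 CPM at 12 h, and 2517 and 2509 CPM at 24 h. At 48 and 72 h they lay between 574 and 843 CPM. The median log2 fold change of its genes was -3.60 in the control step and -0.52 in the elicited step. In elicited cells the sums were 9076 to 25446 CPM at 12 h and 14200.2 to 21909.5 CPM at 24 h. None of the 10 genes fell there, where 5.4% of all genes did, so nothing is read from that count. All 10 passed the test of the difference, which 5.04% of all genes passed, but it holds the control step that chose the run. The stretch from the first to the last gene of both runs held 37 annotated genes, of which 34 were tested: 23 fell in the step, 1 rose and 10 were not called. Since 21 of these falls are the runs that bound the stretch, the other tested genes in it held 2 falls, 1 rise and the 10 not called. The stretch held 15 of the 86 falls of at least 8-fold.

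The run of 8 genes on chromosome 2 (2632881 to 2704293, plus strand) also consisted of 2-exon genes, 474 to 781 bases long in exons, with 4 untested genes between them. Its control sums went from 2714 and 3501 CPM at 0.5 h through 5862 and 7523 CPM at 6 h to 15277 and 16012 CPM at 12 h, and then to 5733 and 6395 CPM at 24 h. They were 2731 and 4331 CPM at 48 h and 1779.8 and 2211 CPM at 72 h. The median log2 fold change was -1.84 in the control step and -0.12 in the elicited step. In elicited cells the sums were 6883 to 16058 CPM at 12 h and 9934 to 14499 CPM at 24 h. None of the 8 was called lower there, where 5.4% of all genes were, so nothing is read from that count. The test of the difference was passed by 6 of them and by 5.04% of all genes. Neighbours of like structure may be near-identical copies. The sources used here do not give how multi-mapping reads were counted, so values of single genes in these runs are uncertain. Dividing reads among the members of a run leaves its sum unchanged. The sum would still change if multi-mapping reads were dropped, counted at several genes or shared with genes outside the run.

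**Figure D5:**
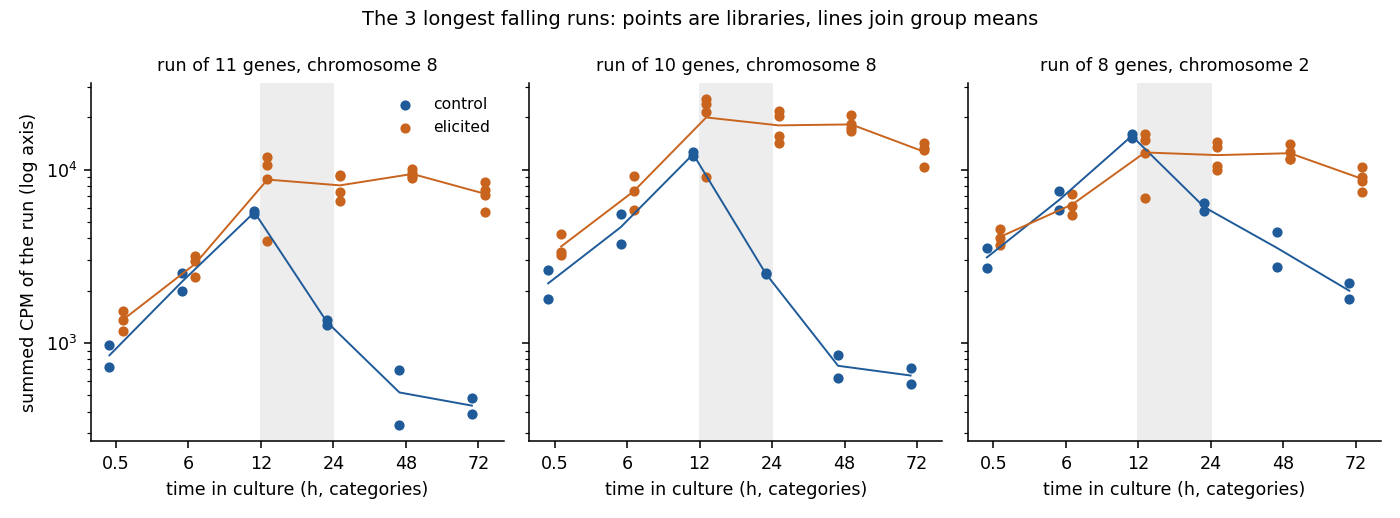
Summed CPM on a log axis (y axis) of the 3 longest runs of neighbouring genes that fell in the control step, at each time in culture (x axis, categories; the step is shaded). Points are libraries and lines join group means; control sums peak at 12 h in all 3 panels and from 24 h on lie below every elicited library of the same time.

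The remaining 7 runs of 5 to 7 genes lay on chromosomes 1, 4 (2 runs), 5, 9 (2 runs) and 14, with median log2 fold changes of -0.60 to -2.50. The 2 runs on chromosome 4 had genes of 6 to 8 exons (3764473 to 3819118) and of 4 or 5 exons (19650471 to 19707700), all on the minus strand, with medians of -1.81 and -2.50. On chromosome 9, the 5 genes at 117714 to 142484 on the plus strand all rose from 0.5 to 6 h (median 2.04). So did 34.6% of all the fallen genes and 16.8% of all genes tested. The 5 genes fell in the control step (-1.86). In the elicited step all 5 were also called lower (-0.89), where 23.0% of all the fallen genes and 5.4% of all genes were. That run thus moved in both treatments, though 2 of its genes also passed the test of the difference, which 5.04% of all genes passed. The runs on chromosomes 1 and 5 and both on chromosome 9 hold 6, 3, 3 and 2 genes that share exon bases with another gene, so their counts are not all separate.

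Few called genes had no read at 1 of the times. Of the 115 tested genes without a read in both 12 h controls, 1 was called higher, where 7.09% of all genes tested were. It reached a mean of 1.23 CPM at 24 h, at least 16.0-fold higher than the floor (3 counts, taken over both libraries). Of the 146 without a read in both 24 h controls, 7 were called lower, where 9.88% of all genes were. These 7 had means of 0.282 to 0.720 CPM at 12 h, which makes them at least 4.03-fold to 10.3-fold lower. The other called genes had reads at both times. Genes so near the floor can seldom be called, so these counts do not show how many genes appeared or vanished. Falls of at least 8-fold were frequent on chromosome 8 (22 of 86, or 25.6%, against 6.29% of all genes tested). Of these 22, 15 lay in the single stretch from the first to the last gene of the 2 runs there. Genes with 2 exons were also frequent among such falls (29 of 86, 33.7%, against 12.0%), with genes of the runs above among them. The median elicited step of these 86 genes was -0.54. In elicited cells 19 of them fell, where 23.0% of all the fallen genes and 5.4% of all genes did.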

How the data were processed

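RNA sequencing counts of 34 libraries were used. The authors deposited whole read counts for each gene, not normalized, beside exon coordinates and summed exon lengths. The submitters' processing notes name fastp, STAR and featureCounts. Which genome build and annotation they used, with what versions, strand setting and handling of multi-mapping reads, is not given in the sources used. RNA had an integrity number of at least 7 and a stranded mRNA kit was used, per the labels. A pool read with long reads is not analysed here. Totals were 17191217 to 18897243 counts, and 3 counts over the 12 and 24 h control groups were 0.0770 and 0.0699 CPM. Intervals and floors cover counting error only.

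Genes were filtered with filterByExpr (minimum count 10), scaled by TMM and fitted in 1 edgeR 4.0.16 quasi-likelihood model (R 4.3.3) with a mean for each of 12 groups over all 34 libraries. The contrast of 24 against 12 h controls holds no elicited library; these enter only through the filter, the scaling and the shared spread. P-values were adjusted by Benjamini-Hochberg over 20107 genes. Standard errors were computed as the log2 fold change without its sign, divided by the root of the F statistic. Log2 CPM used a prior count of 2. Named genes were the first 2 in each direction by log2 fold change among called genes averaging 4 or more in log2 CPM, with non-overlapping groups and no shared exon bases (870 and 1131 qualified). Exon bases are shared with another gene by 2019 of the genes tested, so their counts may not be separate. Whether partners on opposite strands were told apart is not known, since the strand setting is not given. Lists of genes by product were not run, for want of product names. The comparison, its rules and its lists were chosen with earlier results of these data known.

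The fit was tested on simulated data with known changes at 24 h in controls, in genes above a minimum level. There edgeR recovered 66% of 100 genes changed 2-fold and 93% of 100 changed 4-fold, and called 8 of 19288 unchanged genes. A gene not called may therefore still have changed. Alternatives were RLE scaling, library size alone, no filter, DESeq2 1.42.0, other sets of libraries, a replicate block and leaving out each library.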

Additional observations from a re-analysis of the deposited data

Results flagged for a closer look

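The 4 named genes and the 2 counts below stood out because the change from 12 to 24 h differed between control and elicited cells in a test of the difference itself (edgeR quasi-likelihood test, Benjamini-Hochberg over 20107 genes). The control step of Mal_HE_154X_1_chr008g011980 exceeded its elicited step by 3.54 on the log2 scale (adjusted p = 0.00315), and that of Mal_HE_154X_1_chr008g000890 by 2.25 (adjusted p = 0.0163). For Mal_HE_154X_1_chr008g004670 the control step lay lower, at a difference of -3.60 (adjusted p = 0.000833), and for Mal_HE_154X_1_chr009g003920 at -3.87 (adjusted p = 0.000467). These genes were named for the size of their control step, which enters the difference. Over all genes the control step lay above the elicited step in 424 and below it in 589.

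No elicited library of 12 or 24 h lay far from the other 3 of its group by Dixon's criterion in any of the 36 sets of 4 values examined. This includes the 12 h library that stood apart in the counts of all genes. With 4 values in a set the criterion can flag only extreme cases, so its outcome does not clear that library.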

How the results depend on the processing

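The log2 fold changes of the 4 named genes kept their direction and passed in all 48 combinations with an alternative. With only the 4 libraries of the step there were 4152 rises, 4216 falls and 24 falling runs, and with only the groups contrasted 671 genes had the control step above the elicited one. DESeq2 gave 681 of those and 738 genes lower at 72 than at 48 h. Runs over all annotated genes numbered 5. The titles give the groups the same replicate numbers, which were used here, but the sample descriptions and count columns number the controls otherwise, and nothing says that a number marks a shared batch. Same-numbered deviations correlated at 0.00930 between 12 and 24 h and at -0.15 to 0.42 over 15 pairs of control times, 12 of them above 0 and 7 over 0.1. The fit without the block was kept, since not every pair was over 0.1, and whether some numbers mark a shared source is not known. A replicate block over all libraries gave 1454 rises and 2073 falls, and with only the 4 libraries 4331 rises, 4423 falls and 27 falling runs. Library size alone raised the share of rises among calls from 41.8% to 51.6%, and the median gene from -0.04 to 0.03.

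Leaving out single libraries gave ranges of 568 to 677 rises and 930 to 1115 falls for the control step, 606 to 847 and 705 to 974 for the elicited step, 169 to 485 and 204 to 680 for the difference between them, 193 to 712 and 69 to 809 from 48 to 72 h, and 4 to 6 falling runs. Genes shared with the late against early difference ranged over 524 to 1314 (higher) and 820 to 1778 (lower), and with the elicited step over 146 to 348 and 245 to 524. With 2 libraries at each control time, a call on a small change rests on both of them.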

Other observations

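Calls were more frequent among abundant genes. Of 3135 genes with a mean log2 CPM below 0 over all libraries, 1.56% rose (Wilson 95% interval 1.18 to 2.06%) and 2.01% fell (1.57 to 2.56%) in the control step. Of 539 genes at 8 or more, 21.3% rose (18.1 to 25.0%) and 21.5% fell (18.3 to 25.2%). Genes are not independent, so these intervals describe counting error only.

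Of the 14 chromosomes, chromosome 1 had the lowest share of calls, with 3.95% of its 1848 tested genes risen and 7.14% fallen. Its genes had a median level of 2.08 log2 CPM, against 3.21 to 4.42 on the others. Where the mean was 4 or more, 8.23% of its genes rose and 14.5% fell, against 9.29% and 14.3% over all chromosomes. Chromosome 14 had the highest share of falls, 12.5% of its tested genes, and the highest median level, 4.42 log2 CPM. Of genes with a single exon, 4.85% rose, and of genes with 6 or more exons 8.01%, at median levels of 2.01 and 4.65 log2 CPM. With means of 4 or more these shares were 9.06% and 8.34%. The differences between these shares, and the part of the level in them, were not tested.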
